A study of Sus scrofa with 6 samples.

Results

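The proteasome genes of porcine oocytes were taken from the expression table by name, as every gene whose symbol starts with PSMA, PSMB, PSMC, PSMD, PSME, PSMF or PSMG followed by a digit. The rule found 49 of the 29861 genes of the table. Of these 48 encode subunits, assembly chaperones, activators or an inhibitor of the proteasome, and the remaining match, PSMC3IP, encodes a partner of the meiotic recombinases and is kept apart below. RNA was sequenced from pooled oocytes matured in vitro in 3 groups with 2 samples each. Control oocytes were matured at the usual temperature, heat-stressed oocytes were held at an elevated temperature during the first 24 h, and NMN-supplemented oocytes received the same heat stress with nicotinamide mononucleotide (NMN), a precursor of NAD+, in the medium. The labels give every sample the stage GV (germinal vesicle, the arrested immature oocyte) and a time of 24 h, whereas the methods describe metaphase II oocytes, so the stage is uncertain. The labels do not say whether the samples of a group came from separate collections of ovaries, so that the P-values below measure the spread between samples, which may be technical.

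The 26S proteasome degrades proteins that carry ubiquitin chains. Its 20S core is a barrel of alpha rings, which form the gate, and beta rings, which hold the catalytic sites, and its 19S cap has a base of ATPases that unfold the substrate and a lid that removes the ubiquitin. In oocytes the proteasome is best known for destroying cyclin B and securin at the exit from meiotic metaphase, and transcription falls silent before maturation, so that mRNA levels in maturing oocytes largely depend on storage and decay of maternal transcripts.

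Promoter sequences of 3 members are shown as examples of the genes described below. PSMB5 encodes a catalytic subunit that was lower after heat stress, PSMD3 was the most abundant of the subunits found by name, and PSMD12 was the lid subunit with the highest rise. Each sequence is the 250 bases before the annotated transcript start in the RefSeq annotation of the build Sscrofa11.1, read 5′ to 3′ on the gene's strand. The windows are chr7:76014326-76014575 on the plus strand for PSMB5 and, on the minus strand, chr12:22360551-22360800 for PSMD3 and chr12:13730073-13730322 for PSMD12. Capitals mark a match to a CCAAT box on the other strand (ATTGG) in PSMD3.
PSMB5: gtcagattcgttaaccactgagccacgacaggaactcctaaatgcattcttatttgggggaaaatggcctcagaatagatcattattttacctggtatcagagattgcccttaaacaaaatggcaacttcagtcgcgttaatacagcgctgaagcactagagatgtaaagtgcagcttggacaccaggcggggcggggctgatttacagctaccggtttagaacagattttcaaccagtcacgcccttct
PSMD3: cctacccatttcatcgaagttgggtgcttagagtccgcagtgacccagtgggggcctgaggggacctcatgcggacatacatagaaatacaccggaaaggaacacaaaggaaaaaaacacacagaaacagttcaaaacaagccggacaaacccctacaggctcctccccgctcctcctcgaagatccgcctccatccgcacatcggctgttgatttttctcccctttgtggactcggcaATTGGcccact
PSMD12: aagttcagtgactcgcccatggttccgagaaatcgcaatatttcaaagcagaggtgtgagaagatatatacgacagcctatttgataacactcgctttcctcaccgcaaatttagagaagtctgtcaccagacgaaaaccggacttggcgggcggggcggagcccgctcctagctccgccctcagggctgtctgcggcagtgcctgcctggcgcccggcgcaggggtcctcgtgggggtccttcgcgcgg

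Motifs were looked for on both strands from 250 bases before to 50 bases after the transcript start of all 20627 genes with an annotated start. The antioxidant response element TGACNNNGC, the site through which the transcription factors NFE2L1 and NFE2L2 raise proteasome genes in other cells, was found in 5 of the 48 proteasome genes (10.4%) against 12% of all promoters. They included PSMB7, PSMC5, PSMD14 and PSME4, and all 5 had a mean under 1 FPKM. The CCAAT box stood in 18 proteasome promoters (37.5%) against 34.8% of all, and the heat shock element GAANNTTC in 1, that of PSMA2, against 6.38% of all. The palindromic consensus site of nuclear respiratory factor 1 was found in PSMA6, PSMC4 and PSMG1, which is 6.25% of the members against 1.02% of all promoters. PSMB5, PSMD7 and PSMD12 held none of these 4 motifs in the window. A cytoplasmic polyadenylation element, TTTTAT or TTTTAAT, which can keep a maternal mRNA stored until maturation, stood in the last 100 bases of 7 of the 48 transcripts (14.6%), among them PSMB5, against 14.3% of all genes.

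Levels are given as FPKM, in which fragments are divided by transcript length and by library size, so that genes can be set side by side. Proteasome mRNAs differed widely in level although the subunits assemble in equal numbers. A mean of at least 1 FPKM over the 6 samples was reached by 21 of the 48 genes (43.8%), against 15.8% of all genes of the table. Another 16 genes lay between 0.1 and 1 FPKM, 6 were above 0 but under 0.1 FPKM, and 5 were listed at 0 in all 6 samples. The genes just inside the minimum of 1 FPKM were PSMB4 (1.002), PSMA7 (1.014) and PSMC3 (1.024 FPKM), and those just outside were PSMD6 (0.940) and PSMG4 (0.894 FPKM). PSMA7 and PSMC3 reached a group mean of 1 FPKM in control alone and passed through it, as did PSMC4 at the lower minimum of 0.1 FPKM used below, so counts over the tested genes are a description. Among the 31 PSM subunits of the ordinary 26S proteasome, the mean ran from 0.0150 FPKM for PSMB7 to 18.1 FPKM for PSMD3, a ratio of 1208. PSMB7 did not exceed 0.0345 FPKM and was at 0 in heat-stressed replicate 1, so the ratio rests on a value near the floor. The order of the 43 detected genes was similar in all samples, with Spearman correlations between 0.896 and 0.971 over these genes, which share libraries and are no independent replicates. The depth of the samples is unknown, since read numbers were not used here. As bulk samples were sequenced, fewer mRNA copies per oocyte and fewer oocytes with the mRNA cannot be told apart.

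**Figure D1:**
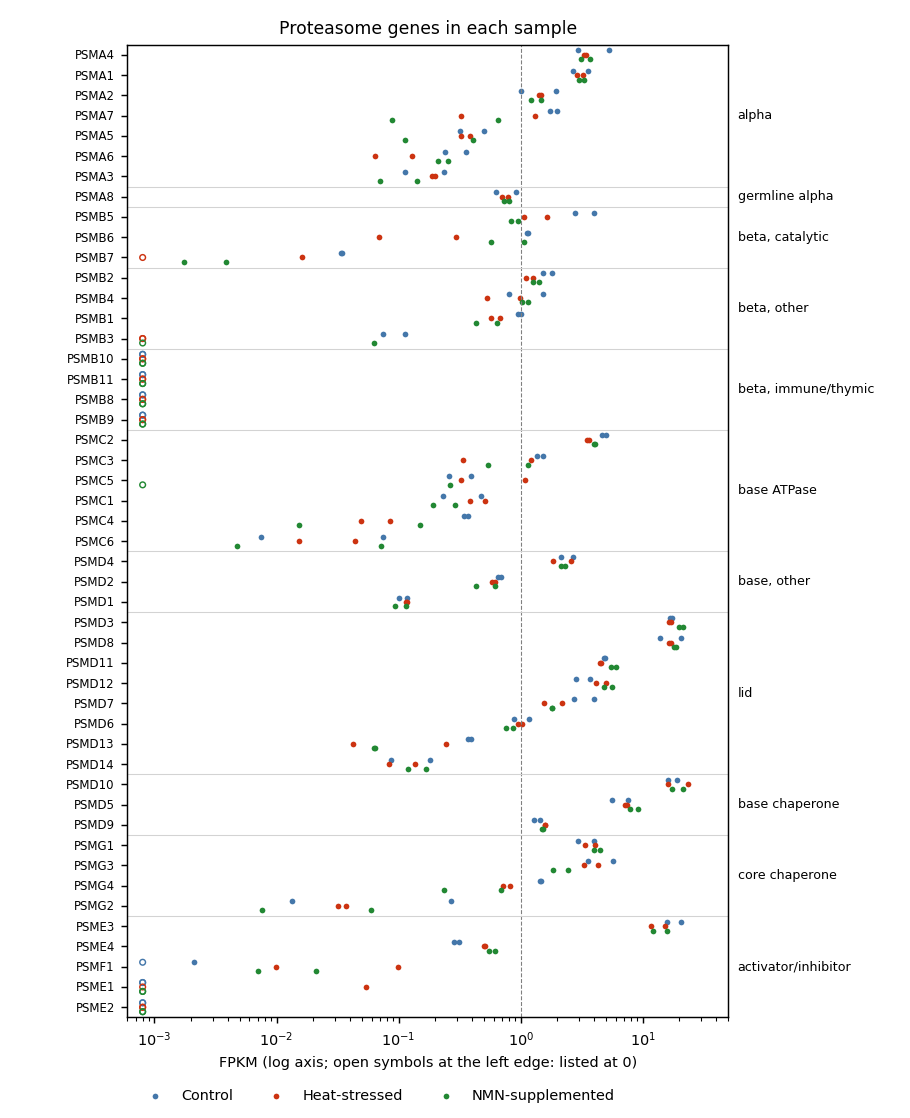
FPKM (log axis) of the 48 proteasome genes in each of the 6 samples, ordered by role and mean level; points are samples coloured by group, open symbols at the left edge are values listed at 0, and the dashed line marks 1 FPKM. The lid and base chaperone genes PSMD3, PSMD8 and PSMD10 and the activator PSME3 lie above 10 FPKM in every sample, and PSMB8, PSMB9, PSMB10, PSMB11 and PSME2 are at 0 in all.

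The sum over the proteasome genes was 126 and 139 FPKM in control, 124 and 114 FPKM in heat-stressed and 129 and 124 FPKM in NMN-supplemented oocytes. Both heat-stressed samples were below the controls, though heat-stressed replicate 1 (124.2 FPKM) was close to control replicate 1 (125.7 FPKM). The NMN-supplemented samples (129.1 and 124.1 FPKM) overlapped with both other groups. Mitochondrially encoded genes took 61.7% to 74.7% of all FPKM in the samples, and 13.9% of heat-stressed replicate 1 came from a single pseudogene, LOC100513953, so values were also rescaled. Among 14 measured oocyte markers, 13 were at or above 1 FPKM, and BMP15 reached the highest level among them. Of the 15 markers of cumulus and granulosa cells 2 (INHBA and GREM1) reached 1 FPKM and 3 (AMH, AREG and INHA) were listed at 0 in all samples. Summed, they gave 19.8 and 15.6 FPKM in control, 13.98 and 10.97 FPKM in heat-stressed and 9.03 and 15.0 FPKM in NMN-supplemented oocytes, higher in both controls than in the other samples. INHBA carried the sum, whereas GREM1 went the other way, with 2.48 and 1.73 FPKM in control, 3.27 and 2.87 FPKM in heat-stressed and 3.58 and 3.55 FPKM in NMN-supplemented oocytes. The part of these cells in the differences below was not tested.

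Heat-stressed oocytes were compared with controls to see which members moved with heat. Transcripts of the 20S core were mostly lower in mean after heat stress, led by the catalytic subunits PSMB5 and PSMB6. PSMB6 was read under the lower minimum of 0.1 FPKM. Without control replicate 2, 4 of the 7 tested core genes were lower and 3 higher, with a median log2 difference of −0.051. The chaperones of the base had higher means, as did 2597 of all 4713 tested genes. Of the 21 tested genes, 3 fell at an unadjusted P under 0.05 and 0 rose, against 10.1% and 12.7% of all 4713 tested genes (limma on log2(FPKM + 1), a scale on which changes of low genes come out smaller than their ratios). The 3 were PSMB5, PSMC2 and PSMD7, and after Benjamini-Hochberg adjustment 0 genes of the table passed. Below, "rose" and "fell" stand for an unadjusted P under 0.05, and the P-values printed are adjusted over all genes of the fit. The median log2 difference was −0.10 over the tested members and 0.049 over all tested genes. With a minimum mean of 0.1 FPKM, 9 of 37 members fell and 1 rose, against 8.99% and 7.02% of 11651 genes. Without any minimum, 31 of the 43 detected members (72.1%) had a lower mean after heat stress, and the same held for 50.7% of the 20552 detected genes. The 2 heat-stressed samples lay below both controls for 17 members (39.5%) and above both for 4 (9.3%), against 19.6% and 17.4% of the detected genes.

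The comparison of NMN-supplemented with heat-stressed oocytes addresses what NMN changed under heat. The lid subunits PSMD3 and PSMD11 rose, the core chaperone PSMG3 fell, and the core subunits together showed no common direction. These 2 higher and 1 lower of 21 genes stand against 7.15% and 6.45% of all tested genes, and 0 genes passed the adjusted threshold (limma, Benjamini-Hochberg). With a minimum mean of 0.1 FPKM 3 of 37 members rose and 0 fell, against 4.33% and 5.64% of all genes in that fit. The median was 0.064 over the members and 0.078 over all tested genes. Of the 43 detected members 21 had a lower and 22 a higher mean with NMN (51.2% higher, against 44.3% of the detected genes). The samples of the groups did not overlap for 8 members that were lower and 9 that were higher (18.6% and 20.9%), against 17.7% and 17.5% of the detected genes. Among the tested genes alone, 14 of 21 members had a higher mean, against 2877 of 4713 genes. Of these members 6 were higher and 3 lower without overlap, against 1691 and 831 of the 4713 genes.

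NMN-supplemented oocytes were also set beside controls, a comparison that shares its samples with both others. PSMB5, PSMA7, PSMD7 and PSMG3 fell and PSMD12 and PSMD3 rose. The 4 lower and 2 higher genes of 21 stand against 15.7% and 25.6% of all tested genes. PSMB5 was the 1 member with an adjusted P under 0.05 (limma, Benjamini-Hochberg), which 21.5% of all tested genes reached. With a minimum mean of 0.1 FPKM 3 of 37 members rose and 8 fell, against 13.3% and 14.5%. The median was −0.060 for the members and 0.11 for all tested genes, and without control replicate 2 the members' median was 0.15. Of the 43 detected members 30 had a lower mean (69.8%, against 54.3% of the detected genes) and 16 lay below both controls (37.2%), while 8 lay above both (18.6%), against 26.2% and 20.5% of the detected genes. For 2 samples against 2, an exact permutation test (two-sided) has a smallest possible P of 0.333, so the P-values rest on the spread that limma shares across genes.

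**Figure D2:**
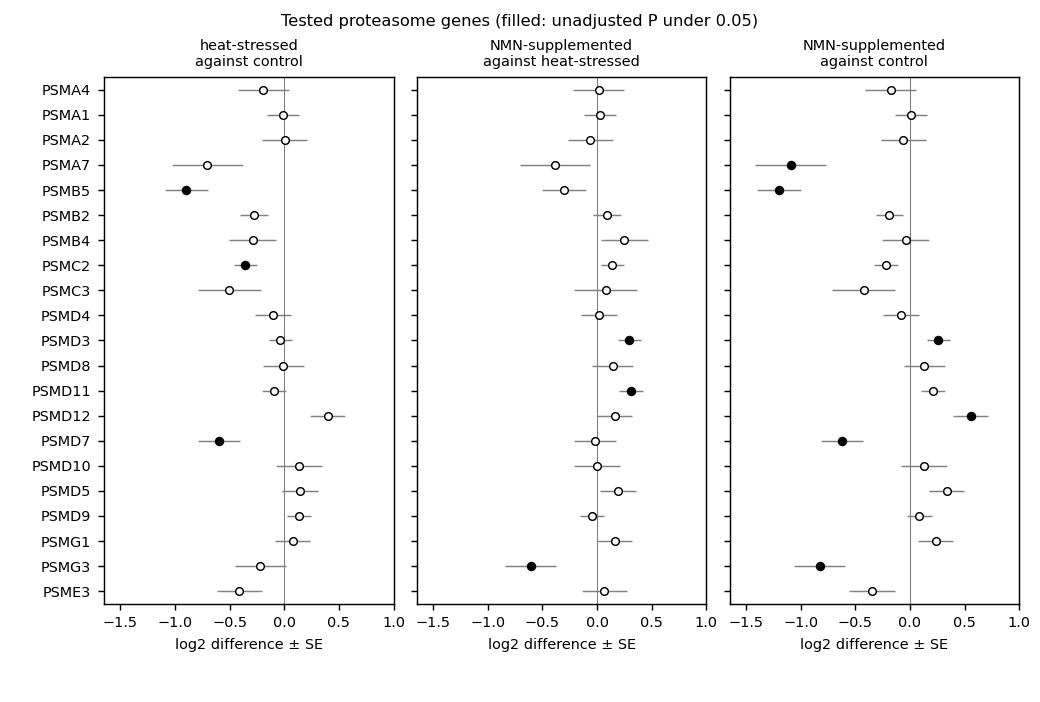
Log2 difference with its SE (limma, log2(FPKM + 1)) of the 21 tested proteasome genes in the 3 comparisons, ordered by role; filled points have an unadjusted P under 0.05. PSMB5 is the furthest to the left against controls in both the heat-stressed (−0.90) and the NMN-supplemented group (−1.20), and most PSMD genes lie near or right of 0.

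Of the 14 ordinary core subunits 13 had a lower mean in heat-stressed oocytes than in controls, 8 of them without overlap of the samples (92.9% and 57.1%, against 50.7% and 19.6% of the detected genes), and 0 were higher without overlap. Against controls, NMN-supplemented oocytes likewise had 13 lower means, 7 without overlap (92.9% and 50%, against 54.3% and 26.2%). Between NMN-supplemented and heat-stressed oocytes 7 means were lower and 7 higher. The median of the 7 tested core genes was −0.28 with heat stress and −0.18 with NMN against control. Without control replicate 2, these medians were −0.051 and 0.15, so that the second changed sign. Between the heated groups it was 0.014, and it turned to −0.018 with quantile normalization and to −0.0059 when samples were scaled to an equal median, and it was −0.0097 without heat-stressed replicate 1 and −0.086 without NMN-supplemented replicate 1. Markers of the oocyte itself moved as well. Of the 13 tested oocyte markers 4 fell with heat stress (30.8%, against 10.1% of all tested genes, limma). Between the heated groups 2 fell (15.4%, against 6.45%), and in NMN-supplemented oocytes against control 7 fell (53.8%, against 15.7%). In each comparison 0 rose, against 12.7%, 7.15% and 25.6% of all tested genes in this order. ZP3, a protein of the egg coat, had differences of −0.89 and −1.26 from control in the heated groups, and ZAR1, a factor of maternal mRNA, of −0.63 and −2.24. BMP15 (0.22 and 0.13) and DPPA3 (0.19 and 0.28) went the other way and lay above both controls in both heated groups. In each comparison with control 10 of the 13 differences were below 0 and 3 above. Of the 4713 tested genes 2116 and 1905 were below 0. The part of this in the results for the core was not tested.

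PSMB5, on chromosome 7 from 76014576 to 76021922, encodes the subunit with the chymotrypsin-like activity, the main target of proteasome inhibitors. It had 2.78 and 4.02 FPKM in control, 1.06 and 1.66 FPKM in heat-stressed and 0.950 and 0.842 FPKM in NMN-supplemented oocytes. Both controls were above all 4 heated samples, and both NMN-supplemented samples were below the heat-stressed ones. PSMB5 fell to 40.0% of the control mean with heat stress (log2 difference −0.90, SE 0.199, adjusted P = 0.127, limma) and was at 26.4% of it in NMN-supplemented oocytes (−1.20, SE 0.199, adjusted P = 0.0237, limma). Between the heated groups the difference was −0.30 (SE 0.199, adjusted P = 0.472, limma). Both calls against control held at P under 0.05 in all 16 alternatives run for them, with a log2 difference from −1.27 to −0.69 and from −1.79 to −0.99. The adjusted P of the second (limma) was above 0.05 in 5 of them, at 0.0540 with a minimum of 0.1 FPKM, 0.0936 with no minimum, 0.104 without control replicate 2 and 0.116 and 0.101 without NMN-supplemented replicate 1 and 2.

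PSMB6, on chromosome 12 from 52096009 to 52098164, encodes the subunit with the caspase-like activity. It had 1.15 and 1.12 FPKM in control, 0.0692 and 0.293 FPKM in heat-stressed and 1.07 and 0.569 FPKM in NMN-supplemented oocytes. Both heat-stressed samples were far below the other 4, while the NMN-supplemented samples lay under the controls and above the heat-stressed ones. With the minimum lowered to 0.1 FPKM, since its mean was 0.712 FPKM, PSMB6 fell to 16.0% of the control mean with heat stress (−0.86, SE 0.175, adjusted P = 0.188, limma). It rose to 4.53 times the heat-stressed mean with NMN (0.62, SE 0.175, adjusted P = 0.458, limma). The rise lost its call without heat-stressed replicate 1 (0.48) and without NMN-supplemented replicate 1 (0.42). The fall kept its call in the 13 alternatives run for it.

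PSMB7, which encodes the subunit with the trypsin-like activity, had 0.0337 and 0.0345 FPKM in control, 0 and 0.0162 FPKM in heat-stressed and 0.00174 and 0.00389 FPKM in NMN-supplemented oocytes. It was the lowest of the ordinary subunits and, at these levels, was not tested. Summed over the 3 catalytic subunits, which is mostly PSMB5 and PSMB6, the level was 3.96 and 5.17 FPKM in control, 1.13 and 1.97 FPKM in heat-stressed and 2.02 and 1.41 FPKM in NMN-supplemented oocytes. Both controls were above the 4 heated samples. The immune counterparts PSMB8, PSMB9 and PSMB10, which replace the 3 catalytic subunits in the immunoproteasome, and the thymic PSMB11, which lies upstream of PSMB5 on chromosome 7, were listed at 0 in all samples, as were 31.2% of all genes of the table.

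**Figure D3:**
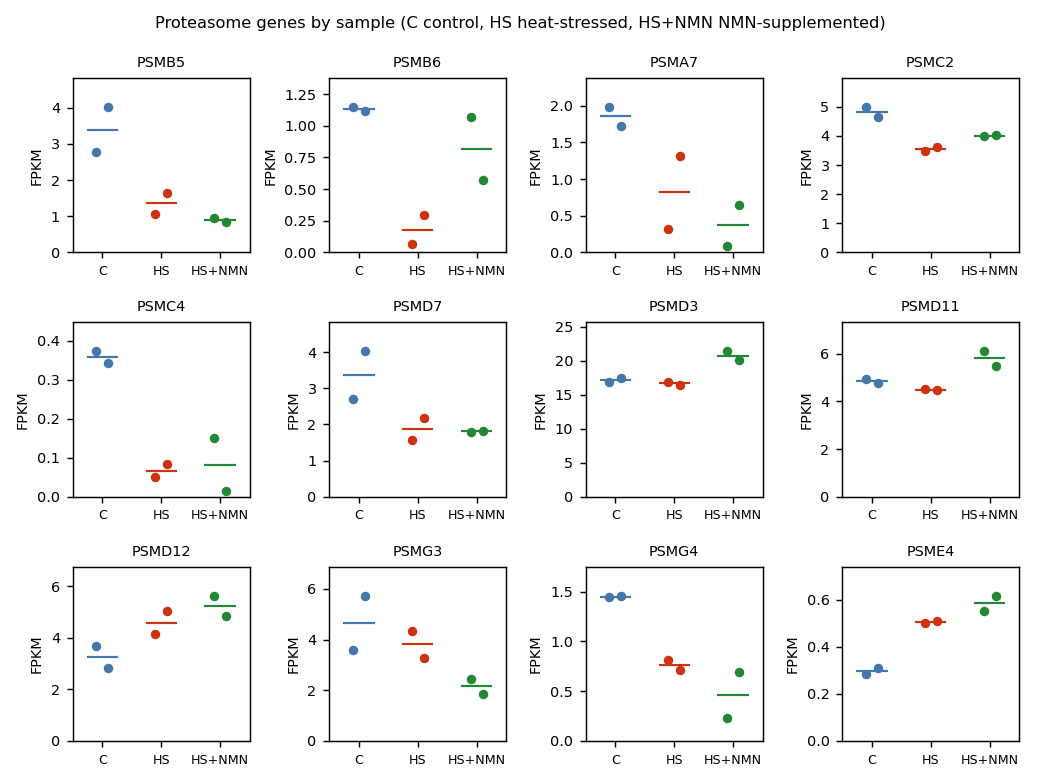
FPKM of 12 proteasome genes in each sample of the control (C), heat-stressed (HS) and, at the right of each panel, NMN-supplemented group; points are samples and lines group means, and each vertical axis starts at 0 with its own scale. PSMB5 and PSMC4 are lower in all heated samples than in both controls, PSMB6 is lowest in the heat-stressed samples, and PSMD3 and PSMD11 are highest in the NMN-supplemented ones.

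The other beta subunits shape the rings without cutting. PSMB2 had 1.80 and 1.52 FPKM in control, 1.12 and 1.27 FPKM in heat-stressed and 1.41 and 1.26 FPKM in NMN-supplemented oocytes. Its control samples stood above the rest, but the difference of −0.28 with heat stress did not pass (SE 0.126, adjusted P = 0.253, limma). PSMB4, with 0.810 and 1.52 FPKM in control, 0.997 and 0.529 FPKM in heat-stressed and 1.02 and 1.14 FPKM in NMN-supplemented oocytes, overlapped between control and either heated group. PSMB1, at 1.01 and 0.956 FPKM in control, 0.569 and 0.682 FPKM in heat-stressed and 0.642 and 0.429 FPKM in NMN-supplemented oocytes, was lower in all heated samples. With the minimum of 0.1 FPKM its differences from control were −0.29 (adjusted P = 0.307) and −0.37 (adjusted P = 0.113) in limma. The first of these was lost in 11 of 13 alternatives, among them whenever any of the 6 samples was left out, with differences between −0.34 and −0.24. The second was lost in 5 of 13, among them without control replicate 1 (−0.35), control replicate 2 (−0.40) or NMN-supplemented replicate 2 (−0.27). PSMB3 was listed at 0 in both heat-stressed samples and in 1 NMN-supplemented sample, and had 0.0747 and 0.113 FPKM in control.

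Among the alpha subunits PSMA4 had the highest mean (3.64 FPKM), with 2.97 and 5.28 FPKM in control, 3.30 and 3.45 FPKM in heat-stressed and 3.74 and 3.12 FPKM in NMN-supplemented oocytes. The 2 controls enclosed the other 4 samples. PSMA1 and PSMA2 overlapped between all groups as well, at 2.69 to 3.57 FPKM and 1.01 to 1.96 FPKM. PSMA7, the lowest of the tested alpha subunits, had 1.98 and 1.73 FPKM in control, 0.323 and 1.31 FPKM in heat-stressed and 0.0887 and 0.646 FPKM in NMN-supplemented oocytes. All 4 heated samples were below the controls, with a spread within the heated groups that was wider than in control. PSMA7 fell to 19.8% of the control mean in NMN-supplemented oocytes (−1.09, SE 0.324, adjusted P = 0.0637, limma), and the heat-stressed difference was −0.70 (SE 0.324, adjusted P = 0.261, limma). PSMA7 passed the minimum of 1 FPKM through control alone. With the minimum of 0.1 FPKM, which each of its group means reached, the adjusted P of the fall was 0.12 (limma). The call was lost without control replicate 1 (−1.03), control replicate 2 (−1.15) or NMN-supplemented replicate 1 (−0.79), and PSMA7 shares its listed locus with LSM14B and LOC106506742, so that its reads may not be fully separable. PSMA6 fell with heat stress under the minimum of 0.1 FPKM, from 0.240 and 0.359 FPKM to 0.0636 and 0.128 FPKM (−0.25, SE 0.0751, adjusted P = 0.255, limma), a call lost without control replicate 2 (−0.18) or heat-stressed replicate 1 (−0.20). PSMA8, the germline counterpart of PSMA7 known from testis, had 0.628 and 0.925 FPKM in control, 0.700 and 0.784 FPKM in heat-stressed and 0.803 and 0.728 FPKM in NMN-supplemented oocytes. Its groups overlapped throughout. The level of PSMA8 was thus above that of PSMA7 in both NMN-supplemented samples and below it in both controls.

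The 6 base ATPases form the unfolding ring of the cap. PSMC2, on chromosome 9 from 103362684 to 103376048, was the most abundant of them with 4.99 and 4.67 FPKM in control, 3.47 and 3.63 FPKM in heat-stressed and 3.99 and 4.03 FPKM in NMN-supplemented oocytes. The 3 groups did not overlap, with the NMN-supplemented samples in between. PSMC2 fell with heat stress to 73.5% of the control mean (−0.36, SE 0.107, adjusted P = 0.160, limma). The NMN-supplemented difference was 0.14 from heat-stressed (SE 0.107, adjusted P = 0.523, limma) and −0.22 from control (SE 0.107, adjusted P = 0.179, limma). The fall lost its call without control replicate 1 (−0.32) or heat-stressed replicate 1 (−0.33) and with the same FPKM sum over nuclear genes (−0.64).

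PSMC3 had 1.35 and 1.54 FPKM in control, 0.338 and 1.22 FPKM in heat-stressed and 0.537 and 1.16 FPKM in NMN-supplemented oocytes. Replicate 1 of each heated group was low and replicate 2 near control, and no difference passed. PSMC4 had 0.373 and 0.344 FPKM in control, 0.0495 and 0.0850 FPKM in heat-stressed and 0.150 and 0.0153 FPKM in NMN-supplemented oocytes. All heated samples were below the controls. As PSMC4 passed the minimum of 0.1 FPKM through control alone, it is given from the fit of all detected genes with no minimum, in which it fell in both heated groups against control (−0.35, adjusted P = 0.270, and −0.33, adjusted P = 0.139, limma). PSMC5 was high in 1 heat-stressed sample (1.08 FPKM) and listed at 0 in 1 NMN-supplemented sample, in a locus shared with DDX42 and FTSJ3. Of the 6 ATPases 4 had a lower mean in heat-stressed and 6 in NMN-supplemented than in control oocytes (66.7% and 100%, against 50.7% and 54.3% of the detected genes). In each case 3 of them (50%) did not overlap, against 19.6% and 26.2%.

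The other base subunits bind substrates. PSMD4, a ubiquitin receptor, had 2.16 and 2.69 FPKM in control, 2.58 and 1.83 FPKM in heat-stressed and 2.15 and 2.30 FPKM in NMN-supplemented oocytes, and its groups overlapped. PSMD2 and PSMD1, the large scaffolds of the base, lay between 0.430 and 0.686 FPKM and between 0.0941 and 0.118 FPKM. Neither showed a difference that passed.

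In the lid, 7 of 8 subunits had a lower mean in heat-stressed than in control oocytes, 3 without overlap. These are 87.5% and 37.5%, against 50.7% and 19.6% of the detected genes. The means of PSMD3, PSMD6 and PSMD8 were still at 96.9% to 97.5% of control, and the median of the 5 tested lid subunits was −0.036. In NMN-supplemented oocytes 3 were lower and 5 higher than in control (37.5% and 62.5%, against 54.3% and 42.1% of the detected genes). In each direction 3 did not overlap (37.5%, against 26.2% lower and 20.5% higher). Among the tested genes alone, 3 of 5 lid subunits were higher and 1 lower without overlap, against 2050 and 1246 of 4713 genes. PSMD3, a scaffold subunit on chromosome 12 from 22344751 to 22360550, had 16.8 and 17.4 FPKM in control, 16.9 and 16.4 FPKM in heat-stressed and 21.4 and 20.0 FPKM in NMN-supplemented oocytes. The NMN-supplemented samples were above the other 4, which lay close together. PSMD3 rose to 1.24 times the heat-stressed mean (0.30, SE 0.104, adjusted P = 0.352, limma) and to 1.21 times the control mean (0.26, SE 0.104, adjusted P = 0.120, limma). These calls were lost in 7 and 14 of 17 alternatives, among them the omission of either sample of the 2 heated groups for the first (differences from 0.25 to 0.34) and of any of the 6 samples for the second (0.21 to 0.30).

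PSMD11, another scaffold of the lid, showed the same order, with 4.93 and 4.78 FPKM in control, 4.53 and 4.45 FPKM in heat-stressed and 6.09 and 5.50 FPKM in NMN-supplemented oocytes. Its NMN-supplemented samples were the highest and its heat-stressed ones the lowest. The rise over heat-stressed oocytes (0.31, SE 0.110, adjusted P = 0.353, limma) was lost in 7 of 17 alternatives, among them without any 1 of the 4 heated samples, with differences from 0.24 to 0.37. PSMD12, also a scaffold, had 3.67 and 2.82 FPKM in control, 4.14 and 5.02 FPKM in heat-stressed and 5.63 and 4.82 FPKM in NMN-supplemented oocytes. All heated samples were above the controls. PSMD12 rose to 1.61 times the control mean in NMN-supplemented oocytes (0.56, SE 0.161, adjusted P = 0.0611, limma), and the heat-stressed difference was 0.40 (SE 0.161, adjusted P = 0.224, limma). The rise lost its call without control replicate 2 (0.41) or NMN-supplemented replicate 1 (0.46) and with the same FPKM sum over nuclear genes (0.58).

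PSMD7, the inactive partner of the deubiquitinase PSMD14, went the other way. It had 2.71 and 4.02 FPKM in control, 1.57 and 2.18 FPKM in heat-stressed and 1.80 and 1.82 FPKM in NMN-supplemented oocytes. Both controls were above the heated samples, which overlapped each other. PSMD7 fell to 55.6% of the control mean with heat stress (−0.60, SE 0.192, adjusted P = 0.179, limma) and to 53.8% of it in NMN-supplemented oocytes (−0.62, SE 0.192, adjusted P = 0.0698, limma). Without control replicate 2, the higher control, neither call held, with differences of −0.38 and −0.40. The first call was also lost without heat-stressed replicate 1 (−0.44), and the second without NMN-supplemented replicate 1 (−0.61) or 2 (−0.63) and with the same FPKM sum over nuclear genes (−0.62).

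PSMD14, the enzyme that cuts ubiquitin off the substrate, was low in all samples, with 0.182 and 0.0874 FPKM in control, 0.135 and 0.0829 FPKM in heat-stressed and 0.119 and 0.168 FPKM in NMN-supplemented oocytes. The groups overlapped, and its listed locus is shared with TBR1 and LOC100739694. Its partner PSMD7 was thus higher than PSMD14 in every sample. PSMD8, a small lid subunit, had 13.8 and 20.5 FPKM in control, 17.0 and 16.5 FPKM in heat-stressed and 18.9 and 18.2 FPKM in NMN-supplemented oocytes. The controls enclosed the rest. PSMD13 fell under the minimum of 0.1 FPKM, from 0.371 and 0.395 FPKM in control to 0.244 and 0.0420 FPKM with heat stress (−0.28, adjusted P = 0.286, limma) and 0.0646 and 0.0633 FPKM with NMN (−0.38, adjusted P = 0.0903, limma). The first call was lost in 8 of 13 alternatives, among them without any sample but heat-stressed replicate 1 (differences from −0.29 to −0.15), and the second without control replicate 2 (−0.37) or either NMN-supplemented sample (−0.38 each).

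All 3 chaperones that assemble the base were higher in mean in both heated groups than in control, but none passed the test. Of the 4713 tested genes, 2597 were likewise higher with heat stress and 2807 in NMN-supplemented oocytes. PSMD10, also known as gankyrin, had the highest mean of all members (18.9 FPKM), with 16.2 and 19.1 FPKM in control, 23.3 and 16.1 FPKM in heat-stressed and 21.5 and 17.4 FPKM in NMN-supplemented oocytes. Its groups overlapped, and it shares its listed locus with ATG4A. PSMD5 had 7.53 and 5.56 FPKM in control, 7.40 and 7.14 FPKM in heat-stressed and 7.85 and 9.09 FPKM in NMN-supplemented oocytes, and PSMD9 lay between 1.29 and 1.59 FPKM throughout. The NMN-supplemented samples were above both controls for PSMD5 and PSMD9, as they were for 2050 of the 4713 tested genes.

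Of the chaperones that assemble the core, PSMG1 had 2.96 and 3.97 FPKM in control, 3.35 and 4.04 FPKM in heat-stressed and 4.46 and 4.01 FPKM in NMN-supplemented oocytes. No difference of PSMG1 passed. Its partner PSMG2 did not exceed 0.268 FPKM in any sample. PSMG3, on chromosome 3 from 1052185 to 1054716, works with PSMG4 in building the alpha ring. It had 3.59 and 5.74 FPKM in control, 4.33 and 3.29 FPKM in heat-stressed and 2.46 and 1.85 FPKM in NMN-supplemented oocytes. The NMN-supplemented samples were below the other 4. PSMG3 fell to 56.5% of the heat-stressed mean (−0.61, SE 0.232, adjusted P = 0.358, limma) and to 46.2% of the control mean (−0.83, SE 0.232, adjusted P = 0.0573, limma). The first call was lost in 7 of 16 alternatives, among them without heat-stressed replicate 1 (−0.45) or NMN-supplemented replicate 1 (−0.75) or 2 (−0.47), and the second without control replicate 2 (−0.55) or NMN-supplemented replicate 2 (−0.69).

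PSMG4 had 1.44 and 1.46 FPKM in control, 0.818 and 0.718 FPKM in heat-stressed and 0.235 and 0.692 FPKM in NMN-supplemented oocytes. The 3 groups did not overlap. With the minimum of 0.1 FPKM it fell with heat stress (−0.47, SE 0.170, adjusted P = 0.292, limma) and in NMN-supplemented oocytes against control (−0.76, SE 0.170, adjusted P = 0.0739, limma). The second call held in the 13 alternatives run for it, while the first was lost in 6 of 13, among them without any 1 of the control and heat-stressed samples, with differences from −0.51 to −0.43.

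Activators can dock on the core in place of the 19S cap. PSME3, which forms the nuclear PA28 gamma ring, was one of the most abundant members, with 20.5 and 15.7 FPKM in control, 15.1 and 11.6 FPKM in heat-stressed and 12.3 and 15.8 FPKM in NMN-supplemented oocytes. The heat-stressed samples were below the controls, but the difference of −0.41 did not pass (SE 0.207, adjusted P = 0.293, limma). PSME4, which encodes the activator PA200, had 0.286 and 0.310 FPKM in control, 0.499 and 0.509 FPKM in heat-stressed and 0.551 and 0.617 FPKM in NMN-supplemented oocytes. The 3 groups did not overlap and both heated groups were higher. Under the minimum of 0.1 FPKM PSME4 rose to 1.69 times the control mean with heat stress (0.21, SE 0.0761, adjusted P = 0.291, limma) and to 1.96 times it in NMN-supplemented oocytes (0.29, SE 0.0761, adjusted P = 0.0947, limma). The first call was lost in 9 of 13 alternatives, among them when any of the 6 samples was left out (differences from 0.20 to 0.23), and the second without NMN-supplemented replicate 2 (0.26) and with the same FPKM sum over nuclear genes (0.32). The interferon-inducible PSME1 was above 0 in a single heat-stressed sample (0.0538 FPKM) and PSME2 in none, and the inhibitor PSMF1 did not exceed 0.0998 FPKM.

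PSMC3IP, matched by name but known as HOP2 and active in meiotic recombination, had 2.01 and 4.04 FPKM in control, 1.69 and 2.78 FPKM in heat-stressed and 0.648 and 1.05 FPKM in NMN-supplemented oocytes. The NMN-supplemented samples were below the other 4. It fell to 28.1% of the control mean in NMN-supplemented oocytes (−1.08, SE 0.303, adjusted P = 0.0566, limma) and to 38.0% of the heat-stressed mean (−0.79, SE 0.303, adjusted P = 0.358, limma). The first call was lost without control replicate 2 (−0.71) or NMN-supplemented replicate 1 (−0.93), and the second in 8 of 16 alternatives, among them without heat-stressed replicate 2 (−0.55) or NMN-supplemented replicate 1 (−0.64) or 2 (−0.95). Its listed locus is shared with MLX.

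A list of 33 partners of the proteasome outside these names held 31 genes of the table, of which 19 were tested. With heat stress 2 rose and 4 fell (10.5% and 21.1%, against 12.7% and 10.1% of all tested genes). Between the heated groups 5 rose and 0 fell (26.3% and 0%, against 7.15% and 6.45%), and in NMN-supplemented oocytes against control 4 rose and 2 fell (21.1% and 10.5%, against 25.6% and 15.7%). The entry listed as SEM1, the symbol of the smallest lid subunit, had a far higher FPKM than any PSM gene. It had 480 and 778 FPKM in control, 366 and 416 FPKM in heat-stressed and 313 and 315 FPKM in NMN-supplemented oocytes. The annotated SEM1 transcript has 429 bases in 1 exon, against 2173 bases in 12 exons for PSMD3. As FPKM divide by length, the gap in fragments is smaller than the gap in FPKM. Whether this 1-exon entry is the lid gene itself or a copy of it was not tested. The 3 groups did not overlap. SEM1 fell with heat stress (−0.65, adjusted P = 0.202, limma) and in NMN-supplemented oocytes against control (−0.96, adjusted P = 0.0439, limma), and the first call was lost in 7 of 17 alternatives, among them without any sample but control replicate 1, with differences from −0.74 to −0.30, the latter without control replicate 2. ADRM1, another ubiquitin receptor of the base, had 2.38 and 2.79 FPKM in control, 0.955 and 1.30 FPKM in heat-stressed and 1.44 and 0.539 FPKM in NMN-supplemented oocytes. It fell in both heated groups against control (−0.76, adjusted P = 0.179, and −0.88, adjusted P = 0.0545, limma), and lay under both controls in all 4 heated samples. Neither call held without control replicate 2 (−0.67 and −0.80), and the first was also lost without control replicate 1 (−0.84) or heat-stressed replicate 1 (−0.64).

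Of the enzymes and factors around the cap, USP14, a deubiquitinase that binds the base, lay between 2.01 and 2.71 FPKM, while UCHL5, which binds ADRM1, did not exceed 0.116 FPKM. POMP, the maturation factor of the core, had 0.856 and 0.270 FPKM in control and 0.109 to 0.290 FPKM in the heated samples. USP14 showed no difference that passed, and UCHL5 and POMP, with means under 1 FPKM, were not among the tested partners. TXNL1, a thioredoxin bound to the cap, rose in both heated groups, from 2.40 and 2.60 FPKM in control to 3.82 and 4.37 FPKM with heat stress (0.54, adjusted P = 0.127, limma) and 4.90 and 4.37 FPKM with NMN (0.69, adjusted P = 0.0255, limma). Both calls held without any 1 sample and were lost with the same FPKM sum over nuclear genes. UBQLN1, a shuttle that carries ubiquitinated proteins to the proteasome, had 8.46 and 8.56 FPKM in control, 10.4 and 11.6 FPKM in heat-stressed and 14.5 and 13.5 FPKM in NMN-supplemented oocytes. Its groups rose in this order without overlap, by 0.66 between control and NMN-supplemented oocytes (adjusted P = 0.0237, limma). The steps from control to heat stress and from heat stress to NMN, both 0.33, lost their call in 8 and 7 of 17 alternatives, and its listed locus is shared with LOC110255669. UBQLN2 (0.38), ZFAND5 (0.29), UFD1 (0.51) and NFE2L1 (0.39) also rose between heat-stressed and NMN-supplemented oocytes, at an adjusted P of 0.319 or more (limma). Each of these 4 calls was lost in 4 to 11 alternatives, among them without heat-stressed replicate 1 (0.28, 0.31, 0.25 and 0.30 in this order) and without either NMN-supplemented sample.

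NFE2L1, the factor that restores proteasome genes when degradation is blocked, had 11.9 and 12.1 FPKM in control, 8.89 and 10.2 FPKM in heat-stressed and 12.56 and 12.99 FPKM in NMN-supplemented oocytes. Its heat-stressed samples were the lowest (−0.31 against control, adjusted P = 0.204, limma). This call was lost in 10 of 17 alternatives, among them without any sample but heat-stressed replicate 2, with differences from −0.31 to −0.22. UBA1, the main ubiquitin-activating enzyme, fell with heat stress (−0.53, adjusted P = 0.179, limma), a call lost without control replicate 2 (−0.34) or heat-stressed replicate 1 (−0.42).

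**Figure D4:**
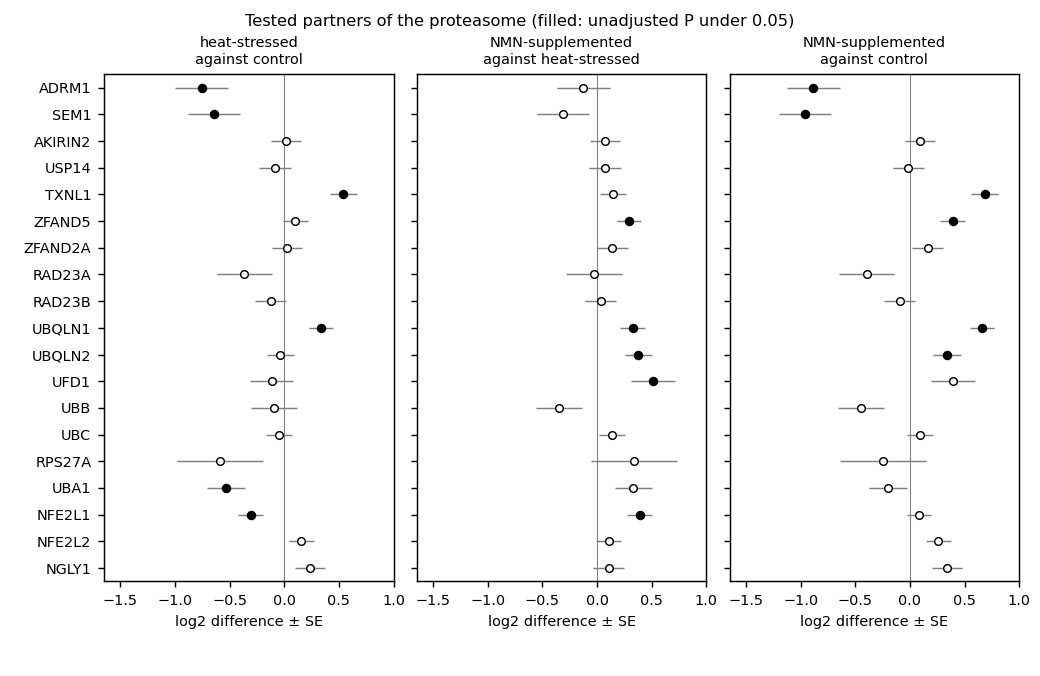
Log2 difference with its SE (limma, log2(FPKM + 1)) of the 19 tested partners of the proteasome in the 3 comparisons; filled points have an unadjusted P under 0.05. ADRM1 and SEM1 lie left of 0 and TXNL1 and UBQLN1 right of 0 in both comparisons with control, and no partner is lower at this threshold between the heated groups.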

How the data were processed

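RNA-seq values of 6 samples of porcine oocytes, 2 per group, were assigned to groups by the treatment in their labels. The authors trimmed reads with cutadapt, mapped them with tophat2 to the pig genome and, per the submitters' processing notes, used Cufflinks 2.2.1, Cuffnorm and Cuffdiff. The authors deposited FPKM per gene and sample, with all 432 contig names shared with Sscrofa11.1. The deposited group values, log2 fold changes, p-values and q-values of the authors' own comparisons were not used. Depth is unknown, since FPKM run down continuously to 1.59e-07 or less and show no steps of whole reads.

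FPKM were log2-transformed after adding 1. Genes with a mean of at least 1 FPKM over the 6 samples (4713) were fitted in one model of the 3 groups with limma 3.58.1 in R 4.3.3 (empirical Bayes, trended variance), with Benjamini-Hochberg adjustment over all of them. Members under 1 FPKM were read from a fit with a minimum of 0.1 FPKM. A call is an unadjusted P under 0.05. The model was tested on simulated data. Members, roles, partners and markers were chosen with earlier results of these data known. Genes named were members and partners with a call, the highest and lowest tested member of each role, and catalytic, immune, activator and other preset members and partners. PSMA1, PSMA2, PSMD1, PSMD2, PSMG2 and the polyadenylation element were chosen after their values were seen. A partner gene and a promoter sequence are not reported here. Promoters were read from RefSeq's Sscrofa11.1 with Python 3.11.15. Alternatives were other pseudocounts, minimums and scalings, the replicate block, fewer groups, no trend and leaving out each sample.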

Additional observations from a re-analysis of the deposited data

How the results depend on the processing

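The number of proteasome genes called depended on the minimum mean. With a minimum of 0.1 FPKM it was 10 for heat stress against control and 11 for NMN against control, in place of 3 and 6. With no minimum it was 13 in both, and with a minimum of 5 FPKM, which left 6 members, 0 in both and 1 for NMN against heat stress, in place of 3. With the same FPKM sum over nuclear genes, the counts were 0 for NMN against heat stress and 3 for NMN against control. The same setting moved the members' median to −0.39 for heat stress, where the median of all genes was −0.22, and to 0.31 for NMN against heat stress, where it was 0.35. LOC100513953 raises the nuclear sum of heat-stressed replicate 1, and without it, in an alternative chosen after seeing the data, the medians were −0.13 and 0.087. For NMN against control the median was 0.17 with a minimum of 5 FPKM. Leaving out 1 sample gave 2 to 5 calls for heat stress (5 without heat-stressed replicate 2), 0 to 3 for NMN against heat stress (0 without either NMN-supplemented sample, 1 without either heat-stressed one) and 2 to 6 for NMN against control (2 without control replicate 2 or NMN-supplemented replicate 1, 3 without NMN-supplemented replicate 2). The medians then ran from −0.23 to −0.015, from 0.052 to 0.098 and from −0.17 to 0.15, the last above 0 only without control replicate 2. Where a group was left with 1 sample, that sample was assumed to vary like the other groups. With the replicate number as a block the counts were 4, 0 and 5. Same-numbered samples did not deviate together (correlations of −0.032, 0.00805 and −0.0139), so the numbers are not taken as pairs. No called difference of a member or partner changed sign under the alternatives run for it. Apart from the leave-one-out and scaling effects given, the cause was not tested, and unknown depth limits what can be said of members under 1 FPKM.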
